A study of Xenopus laevis with 54 samples.

Results

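Of the 50489 genes in the table, 12 belong to the Cdc25, Wee1 and Chk1 families that set when a cell may enter mitosis. They were taken by name, as every row called cdc25a, cdc25b, cdc25c, wee1, wee2 or chek1 with a copy suffix. Xenopus laevis carries an L and an S subgenome, and all 6 genes were listed with both copies.

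Entry into mitosis is driven by Cdk1 bound to a cyclin. Wee1 kinases hold Cdk1 inactive by phosphorylating an inhibitory tyrosine, Cdc25 phosphatases remove that phosphate, and the checkpoint kinase Chk1 restrains Cdc25 and favors Wee1 when DNA replication is unfinished. The frog egg stores messages and proteins for the rapid cleavage cycles, and these cycles lengthen at the midblastula transition, when the embryonic genome becomes active, Chk1 is transiently active and Cdc25A protein is destroyed. The gene symbols need care for the Wee1 kinases. RefSeq for the assembly Xenopus_laevis_v10.1 lists xe-wee1a, the name of the maternal kinase, among the synonyms of wee2.L, and Xe-Wee1B, the name of the zygotic kinase, among those of wee1.S. The synonyms are mixed, since wee1a stands under every copy of wee1 and wee2, and wee2 and XWee2 stand under wee1.L.

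The libraries came from wild-type Xenopus laevis. Before the first cleavage each embryo received EU (5-ethynyl uridine), which cells build into newly made RNA, as an injection of 10 nl at 50 mM (about 0.5 mM in the embryo), and it grew at room temperature in dilute Ringer's medium. RNA captured through its EU (bead) and RNA left uncaptured (flowthrough) were sequenced at 5, 6, 7, 8 and 9 hours post fertilization (hpf) in 4 libraries each, 2 from each of 2 experiments. Total RNA of the same kind of EU-injected embryos had 4 libraries at 5 hpf and 2, from experiment 1, at each later time. Unfertilized eggs, for which the labels give no EU treatment, had 2 total RNA libraries from experiment 2. The series' design text describes replicates as separate clutches, numbered 1 and 2 in experiment 1 and 3 and 4 in experiment 2. No embryos without EU are among the libraries, so unlabelled RNA held by the beads was not measured.

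Values are reads normalized by the authors and rounded, so the depth of a library is unknown. The normalized values of a bead library totalled 8175480 to 15200969 in experiment 2 and 7376513 to 8806052 in experiment 1. Bead libraries of experiment 2 detected fewer genes than all others: 12814 to 18990 genes were above 0 there, against 23212 to 28348 in bead libraries of experiment 1. Of the genes abundant elsewhere, 0.303 to 21.8% were listed at 0 in each bead library of experiment 2, against 0.026 to 0.0779% in experiment 1. Among the members, cdc25b.S was listed at 0 in 4 of the 10 bead libraries of experiment 2, cdc25b.L in 2, and cdc25a.S, cdc25c.S and chek1.L in 1 each, so a value of 0 is given only as listed.

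The cdc25b copies were the members called higher at 9 than at 5 hpf in bead RNA by the main fit. A gene was called when limma's adjusted p was under 0.05 and its difference on the log2(value + 1) scale was 2-fold or more. Of 12 members tested in bead RNA at 9 against 5 hpf, 2 rose, 1 fell and 9 were not called, and of all 20703 genes tested 7.26% were called, 5.83% higher and 1.43% lower. The median log2 change was -0.32 over the members and -0.33 over all genes. In total RNA 2 of 12 rose and 0 fell (8.25% of genes called, 6.25% higher). At an unadjusted limma p under 0.05, 3 members were higher and 1 lower there whatever the fold. Of all 21534 genes tested in total RNA, 2661 were higher and 2099 lower at that level. The member counts were the same at a limma adjusted p under 0.05. In flowthrough 0 of 11 members tested were called (4.14% of genes called). Before the 2-fold rule 0 were higher and 5 lower there at a limma adjusted p under 0.05. How many of all genes passed an adjusted p without the 2-fold rule was not counted, in total RNA or in flowthrough. At an unadjusted p under 0.05, 2 members were higher and 6 lower, against 2191 higher and 3644 lower of all 19277 genes tested in flowthrough. No copy of cdc25a, cdc25c or wee2, whose messages the eggs held, was called lower in total or flowthrough RNA by 9 hpf. Whole embryos were measured, and fewer cells of a type cannot be told apart from less RNA per cell.

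cdc25b encodes a Cdc25 phosphatase that activates Cdk1, and its L copy was at or near 0 in eggs and at 5 hpf. In bead RNA cdc25b.L was at 1, 5, 3 and 0 in replicates 1 to 4 at 5 hpf, 12, 3, 53 and 0 at 6 hpf, 221, 78, 107 and 37 at 7 hpf, 808, 580, 667 and 955 at 8 hpf, and 1605, 743, 1526 and 1163 at 9 hpf. In total RNA it was at 0 and 3 in eggs, 1, 0, 1 and 0 at 5 hpf, 2 and 1 at 6 hpf, 111 and 20 at 7 hpf, 676 and 433 at 8 hpf, and 952 and 576 at 9 hpf. Every bead and total RNA library from 7 hpf on was above every one of 5 hpf in its fraction, and the 6 hpf bead libraries overlapped those of 5 hpf. Flowthrough held 0 to 7 at all times, under the level set for testing in that fraction.

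The log2 difference of cdc25b.L between 9 and 5 hpf was 8.84 ± 1.08 in bead RNA (SE, limma adjusted p = 5.03e-06) and 9.03 ± 0.88 in total RNA (SE, limma adjusted p = 9.17e-05). These sizes depend on the pseudocount because the 5 hpf values are near 0: with a pseudocount of 10 they were 6.65 and 6.16. At 5 hpf cdc25b.L was under 10, the level for testing, in every bead and total RNA library. It was tested only through later libraries, where it was high, so its p-values add no support beyond the values. In bead RNA the copy was called from 7 hpf, where it was 5.13 ± 1.08 (SE, limma adjusted p = 0.012) and 1.25% of genes were called. That 7 hpf call was lost in experiment 2 alone (limma adjusted p = 1), without replicate 1 or 2 (limma adjusted p = 0.551 and 0.16), and without the 7 hpf library of replicate 1 or the 5 hpf library of replicate 4 (limma adjusted p = 0.0723 and 0.0549). In total RNA at 7 hpf (1.12% of genes called) the call at 5.10 ± 0.88 (SE, limma adjusted p = 0.0207) was lost with a pseudocount of 10 (limma adjusted p = 0.0843). It was also lost without the 5 hpf library of replicate 1 or 2 (limma adjusted p = 0.0801 and 0.191). Leaving out all of replicate 1 or 2 leaves 1 library at 7 hpf, which cannot decide whether the call holds. The difference was then 4.39 and 5.81, and 3.89 without only the 7 hpf library of replicate 1. In experiment 2 alone the bead difference at 9 hpf was 9.38 (limma adjusted p = 0.0484).

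The S copy of cdc25b was at low values, not above 26, in eggs and at 5 and 6 hpf. In bead RNA cdc25b.S was at 5, 25, 19 and 0 at 5 hpf, 11, 18, 0 and 0 at 6 hpf, 66, 49, 0 and 11 at 7 hpf, 308, 247, 137 and 143 at 8 hpf, and 547, 274, 245 and 384 at 9 hpf. In total RNA it was at 9 and 12 in eggs, 5, 17, 5 and 15 at 5 hpf, 7 and 26 at 6 hpf, 50 and 32 at 7 hpf, 272 and 223 at 8 hpf, and 373 and 244 at 9 hpf. Bead libraries of 8 and 9 hpf stood clear of those of 5 hpf, while those of 7 hpf overlapped them. In flowthrough it ranged from 1 to 24 over the 20 libraries. The log2 difference at 9 against 5 hpf was 5.53 ± 1.17 in bead RNA (SE, limma adjusted p = 0.003) and 4.86 ± 0.70 in total RNA (SE, limma adjusted p = 0.00109). The bead call came at 8 hpf, with 4.72 ± 1.17 (SE, limma adjusted p = 0.0214) and 3.2% of genes called, and whether the copies differ in timing was not tested. This 8 hpf call was lost with no experiment term (limma adjusted p = 0.131), in experiment 2 alone (limma adjusted p = 0.737) and without replicate 1, 2 or 4 (limma adjusted p = 0.381, 0.198 and 0.106). It was lost as well without the 5 hpf library of replicate 1 or 4 (limma adjusted p = 0.108 and 0.0995) and without the 8 hpf library of replicate 3 or 4 (limma adjusted p = 0.0564 and 0.0622). Experiment 2 alone did not call the 9 hpf difference (6.11, limma adjusted p = 0.228), nor did the fit without replicate 1 (5.20, limma adjusted p = 0.0928). In total RNA the calls of both copies at 9 hpf were lost when replicate 1 or 2 was left out, which leaves 1 library at 9 hpf and calls 0 genes in all.

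**Figure D1:**
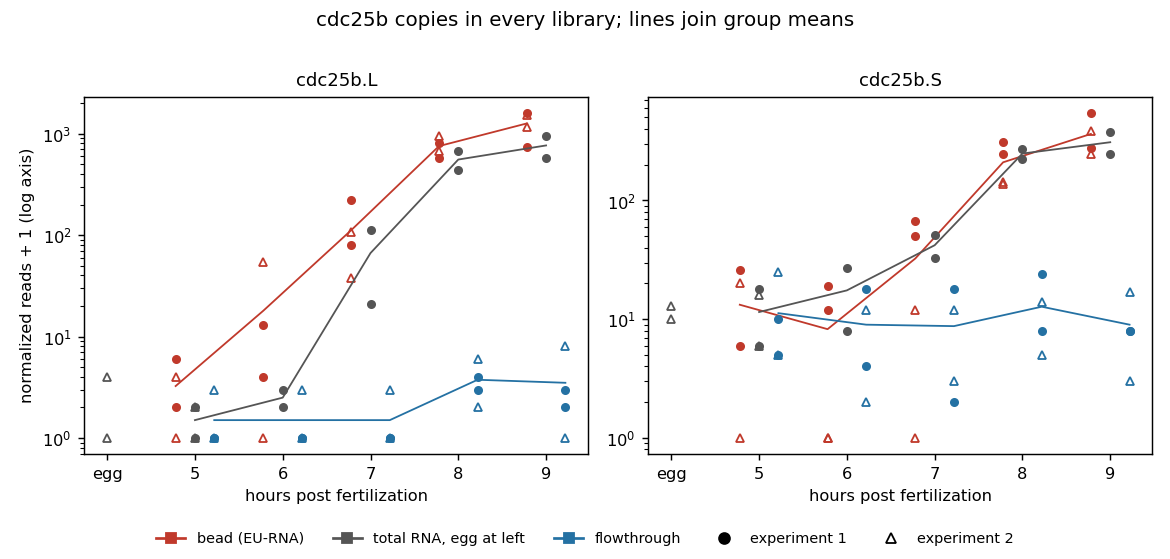
Normalized reads plus 1 (log axis) of cdc25b.L and cdc25b.S by hours post fertilization in bead, total and flowthrough RNA, with eggs at the left. Each point is a library, filled circles are experiment 1, open triangles experiment 2, and lines join group means. Bead values of cdc25b.L at 9 hpf lie between 743 and 1605, while flowthrough stays at or under 7.

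cdc25a encodes the phosphatase whose protein is destroyed at the midblastula transition. cdc25a.L in total RNA was at 2567 and 2811 in eggs, 2570, 2735, 2730 and 2547 at 5 hpf, 2665 and 2658 at 6 hpf, 2825 and 2854 at 7 hpf, 2846 and 2754 at 8 hpf, and 2688 and 2780 at 9 hpf. Both libraries of 7 hpf and both of 8 hpf were above all 4 of 5 hpf, by 0.10 ± 0.07 and 0.08 ± 0.07 on the log2 scale (SE, limma adjusted p = 1 and 0.863), and those of 9 hpf overlapped them. The log2 difference at 9 against 5 hpf was 0.04 ± 0.07 in total RNA (SE, limma adjusted p = 0.844; 95% interval -0.11 to 0.20). In flowthrough it averaged 2938 ± 93.7 at 9 hpf and 2734 ± 84.0 at 5 hpf (SD, n = 4 each). In bead RNA the 9 hpf values were 2476, 2537, 1410 and 2172 and the 5 hpf values 2725, 3012, 1491 and 1278, with both experiment 1 libraries above both experiment 2 libraries at each of these times. Protein was not measured.

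The S copy, cdc25a.S, varied widely between replicates. In flowthrough it was at 273, 77, 231 and 67 in replicates 1 to 4 at 5 hpf, 250, 67, 192 and 87 at 6 hpf, 166, 80, 209 and 64 at 7 hpf, 200, 53, 190 and 40 at 8 hpf, and 129, 29, 121 and 54 at 9 hpf. In total RNA it was at 236, 68, 263 and 81 at 5 hpf, 267 and 93 at 6 hpf, 243 and 71 at 7 hpf, 191 and 65 at 8 hpf, and 186 and 35 at 9 hpf. Replicates 1 and 3 were above replicates 2 and 4 in every one of these groups where they were sequenced, although they belong to different experiments. The 2 egg libraries were at 186 and 794. The log2 difference at 9 against 5 hpf was -0.92 ± 0.70 in flowthrough (SE, limma adjusted p = 0.433) and -0.64 ± 1.12 in total RNA (SE, limma adjusted p = 0.867), and neither was called. In bead RNA cdc25a.S was at 103, 41, 0 and 22 in replicates 1 to 4 at 9 hpf and 119, 76, 122 and 62 at 5 hpf, so that at 9 hpf replicate 3 was below replicate 4, unlike in flowthrough and total RNA. The bead difference was -2.37 ± 1.27 (SE, limma adjusted p = 0.284) and was not called.

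The same split of replicates ran through other genes. Across genes of at least 10 in all 4 libraries, the difference between replicates 1 and 2 correlated with that between replicates 3 and 4 at r = 0.748 in total RNA at 5 hpf over 16769 genes, and at 0.583 to 0.731 in flowthrough at the 5 times. On the beads r was 0.141 to 0.248. These are correlations across genes, which are not independent replicates, and they were looked at after the values of cdc25a.S were seen. Whether clutches of the 2 experiments shared parents was not tested, and the p-values given here treat the 4 clutches as separate. Outside the fits with a replicate block they also treat the libraries of a clutch as separate.

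cdc25c encodes the phosphatase that fires at mitosis in the egg's cycles. cdc25c.L was at 1003 and 920 in total RNA at 9 hpf and 875, 835, 1000 and 944 at 5 hpf, and the groups overlapped (log2 difference 0.17 ± 0.11, SE, limma adjusted p = 0.451). All 4 total RNA libraries of 5 hpf were above both egg libraries, at 590 and 690. That difference, 0.61 ± 0.11 on the log2 scale (SE, limma adjusted p = 0.0369), was under 2-fold and so was not called, and in experiment 2 alone its limma adjusted p was 0.33.

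The S copy, cdc25c.S, is the member called lower in bead RNA at 9 against 5 hpf. It was at 389, 297, 255 and 330 at 5 hpf, 260, 309, 383 and 328 at 6 hpf, 240, 260, 151 and 496 at 7 hpf, 267, 224, 236 and 169 at 8 hpf, and 211, 153, 0 and 30 at 9 hpf. All 9 hpf libraries were below all 5 hpf libraries, and the lowest values were those of experiment 2. The log2 difference was -3.31 ± 1.02 (SE, limma adjusted p = 0.0461). In experiment 1 alone it was -0.92 (limma adjusted p = 0.0243), under 2-fold, and without the 9 hpf library of replicate 3, where the copy is listed at 0, it was -1.71 (limma adjusted p = 0.0835). Of 20 alternatives 15 lost the call. In flowthrough cdc25c.S averaged 200 ± 15.5 at 9 hpf and 263 ± 23.5 at 5 hpf (SD, n = 4 each), with no overlap and a log2 difference of -0.40 ± 0.10 (SE, limma adjusted p = 0.00792), under 2-fold. In total RNA it was at 187 and 184 at 9 hpf and 228, 192, 190 and 196 at 5 hpf.

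chek1 encodes Chk1, and neither copy was called over time in any fraction. chek1.L in flowthrough was at 211, 249, 205 and 226 at 9 hpf and 255, 284, 284 and 298 at 5 hpf, all lower at 9 hpf, with a log2 difference of -0.33 ± 0.11 (SE, limma adjusted p = 0.0413) that was under 2-fold. In total RNA it was at 220 and 222 at 9 hpf, against 228, 273, 263 and 297 at 5 hpf and 269 and 291 in eggs. On the beads chek1.L was at 176, 153, 660 and 0 at 9 hpf and 303, 231, 160 and 117 at 5 hpf. The highest and the lowest of the 9 hpf values both came from experiment 2, and the 95% interval of the log2 difference ran from -4.04 to 0.93.

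chek1.S was at 154, 135, 18 and 125 in bead RNA at 9 hpf and 291, 156, 242 and 247 at 5 hpf. All 9 hpf values were below all 5 hpf values, and the log2 difference was -1.44 ± 0.73 (SE, limma adjusted p = 0.251), which was not called. In total RNA chek1.S was at 132 and 160 at 9 hpf, 218, 175, 215 and 150 at 5 hpf, and 341 and 258 in eggs.

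**Figure D2:**
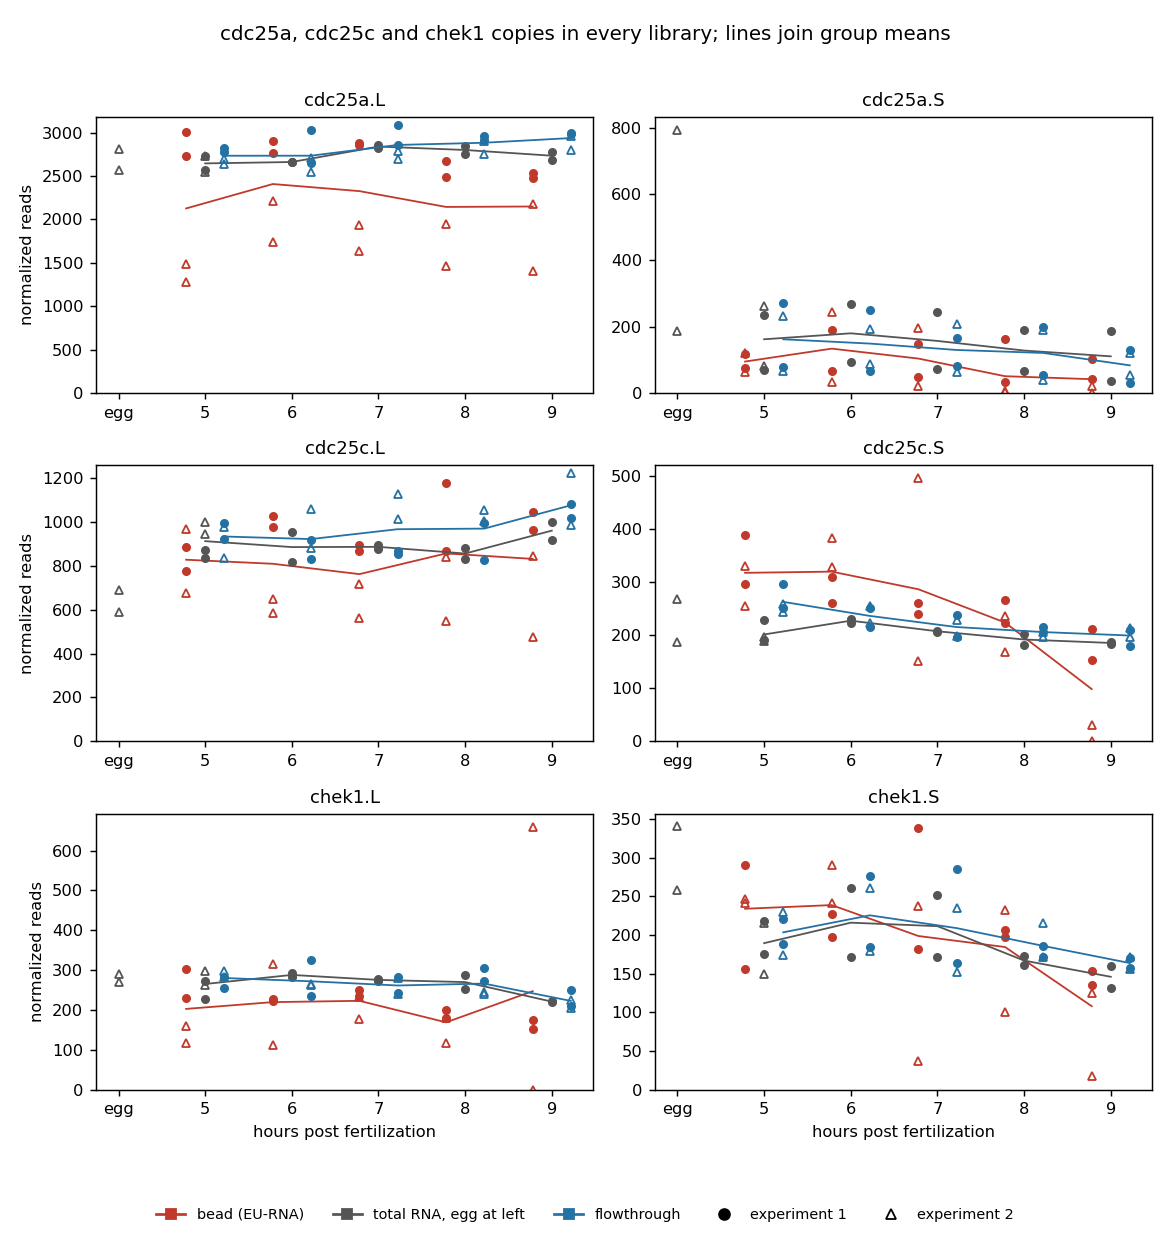
Normalized reads of the cdc25a, cdc25c and chek1 copies by hours post fertilization, on linear axes that start at 0, in bead, total and flowthrough RNA with eggs at the left. Points are libraries, marked by experiment, and lines join group means. cdc25a.L stays between 2547 and 2854 in total RNA from 5 to 9 hpf, and cdc25a.S splits by replicate, with 186 and 35 in total RNA at 9 hpf.

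wee1.L encodes a Wee1 kinase, and its bead values were highest at 9 hpf. In bead RNA it was at 135, 133, 164 and 279 at 5 hpf, 119, 129, 120 and 193 at 6 hpf, 130, 147, 65 and 205 at 7 hpf, 185, 207, 135 and 316 at 8 hpf, and 281, 409, 594 and 1296 at 9 hpf. All 9 hpf libraries were above all 5 hpf libraries, and the 6, 7 and 8 hpf libraries overlapped those of 5 hpf. Means were 645 ± 453 at 9 hpf and 178 ± 69.0 at 5 hpf (SD, n = 4 each). The value of 1296 came from the replicate 4 library, whose normalized total, 15200969, was the largest of all libraries. The part of that total in the rise was not tested. The log2 difference of 1.68 ± 0.56 did not pass the threshold (SE, limma adjusted p = 0.0683). With the replicate number, which stands for a clutch, as a block, the difference was 1.68 ± 0.49 (SE, limma adjusted p = 0.0329) and was called. It was also called in experiment 1 alone, at 1.33 (limma adjusted p = 0.00369), but not in experiment 2 alone, at 2.03 (limma adjusted p = 0.323). A pseudocount of 10 gave 1.63 and array weights 1.29, both called (limma adjusted p = 0.0405 and 0.000342). Without replicate 3 or 4 it was called too (limma adjusted p = 0.0488 and 0.0256). The other alternatives run did not call it.

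In total RNA wee1.L was at 193 and 205 in eggs, 154, 166, 190 and 199 at 5 hpf, 183 and 158 at 6 hpf, 172 and 154 at 7 hpf, 184 and 195 at 8 hpf, and 232 and 303 at 9 hpf. Both 9 hpf libraries were above every earlier one, eggs included. The log2 difference of 0.73 ± 0.16 at 9 against 5 hpf (SE, limma adjusted p = 0.0154) was under 2-fold. Flowthrough ran the other way: wee1.L was at 72, 51, 38 and 62 at 9 hpf and 163, 66, 96 and 102 at 5 hpf, which overlap, with a log2 difference of -0.89 ± 0.25 (SE, limma adjusted p = 0.0161), under 2-fold. Without the 5 hpf library of replicate 2 it was -1.16 (limma adjusted p = 0.00164) and was called.

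wee1.S, the copy listed under Xe-Wee1B, was the member called between 5 hpf embryos and eggs. In total RNA it was at 735, 1112, 835 and 1001 at 5 hpf, against 330 and 351 in eggs, and the groups did not overlap. It was the only 1 of 12 members called in that comparison, with a log2 difference of 1.42 ± 0.24 (SE, limma adjusted p = 0.0286), while 0.52% of all genes were called and 0.237% called higher. The call was lost without either 5 hpf library of experiment 2, at 1.55 and 1.29 (limma adjusted p = 0.16 and 0.195). It was also lost in experiment 2 alone (limma adjusted p = 0.097). Without either egg library the difference was 1.38 and 1.47 and was not called, but this leaves 1 egg library. Without all of replicate 1 or 2 it was 1.42 each time and not called. Those fits leave 1 library at each later time and cannot decide whether the call holds. After 5 hpf total wee1.S was at 885 and 1063 at 6 hpf, 925 and 1034 at 7 hpf, 873 and 1120 at 8 hpf, and 675 and 1035 at 9 hpf, within the 5 hpf range in all but 2 libraries. In bead RNA it was at 697, 874, 330 and 950 at 9 hpf and 786, 843, 435 and 227 at 5 hpf, which overlap. In flowthrough it was at 434, 625, 441 and 596 at 9 hpf and 657, 798, 517 and 799 at 5 hpf, with a log2 difference of -0.40 ± 0.17 (SE, limma adjusted p = 0.122).

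The wee2 copies had higher egg values than the wee1 copies, and wee2.L is listed under the maternal name xe-wee1a. wee2.L in total RNA was at 2079 and 1811 in eggs, 1689, 1650, 1786 and 1732 at 5 hpf, 1876 and 1670 at 6 hpf, 1815 and 1555 at 7 hpf, 1550 and 1449 at 8 hpf, and 1252 and 1315 at 9 hpf. The 8 and 9 hpf libraries lay below all libraries of 5 hpf and eggs. Its log2 difference at 9 against 5 hpf was -0.38 ± 0.10 in total RNA (SE, limma adjusted p = 0.035). In flowthrough it averaged 1043 ± 58.8 at 9 hpf and 1367 ± 103 at 5 hpf (SD, n = 4 each), with no overlap and a log2 difference of -0.39 ± 0.06 (SE, limma adjusted p = 7.78e-05). Both differences were under 2-fold.

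In bead RNA the 2 experiments had different levels of wee2.L. It was at 1711, 1562, 584 and 663 at 5 hpf, 1476, 1499, 723 and 347 at 6 hpf, 1342, 1286, 587 and 454 at 7 hpf, 1142, 1094, 424 and 527 at 8 hpf, and 991, 794, 343 and 313 at 9 hpf. Within each experiment the 9 hpf libraries were below the 5 hpf libraries. The log2 difference was -0.90 ± 0.23 (SE, limma adjusted p = 0.0128), under 2-fold in the scaling as deposited and -1.05 (limma adjusted p = 0.0014), past 2-fold, after quantile normalization. wee2.S had a log2 difference of -0.59 ± 0.46 in bead RNA (SE, limma adjusted p = 0.482), -0.37 ± 0.08 in flowthrough (SE, limma adjusted p = 0.00392) and -0.11 ± 0.17 in total RNA (SE, limma adjusted p = 0.853). In total RNA wee2.S was at 1313 and 1505 at 9 hpf and 1341, 1706, 1537 and 1893 at 5 hpf, which overlap.

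**Figure D3:**
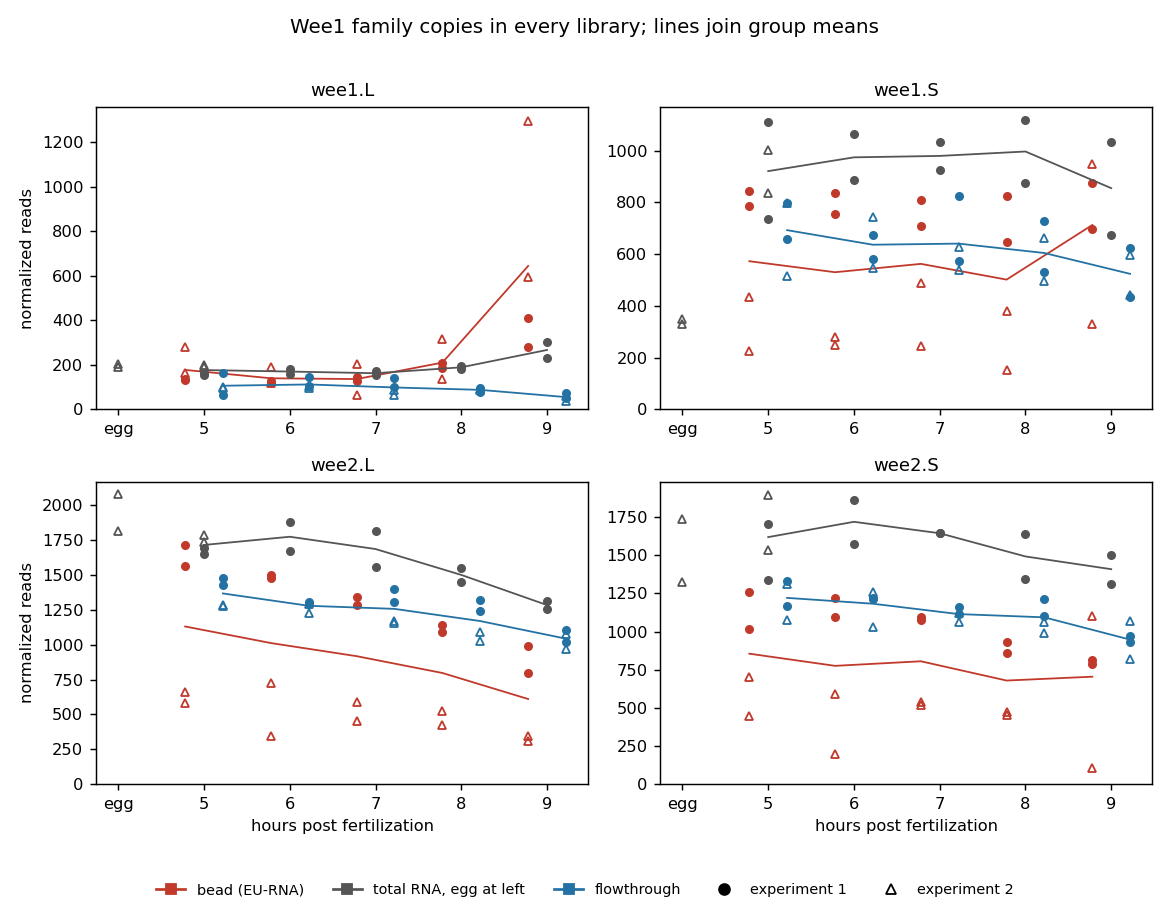
Normalized reads of the wee1 and wee2 copies by hours post fertilization on linear axes, in bead, total and flowthrough RNA with eggs at the left. Points are libraries, marked by experiment, and lines join group means. Bead values of wee1.L at 9 hpf reach 281 to 1296, and wee1.S in total RNA at 5 hpf, at 735 to 1112, lies above the eggs at 330 and 351.

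**Figure D4:**
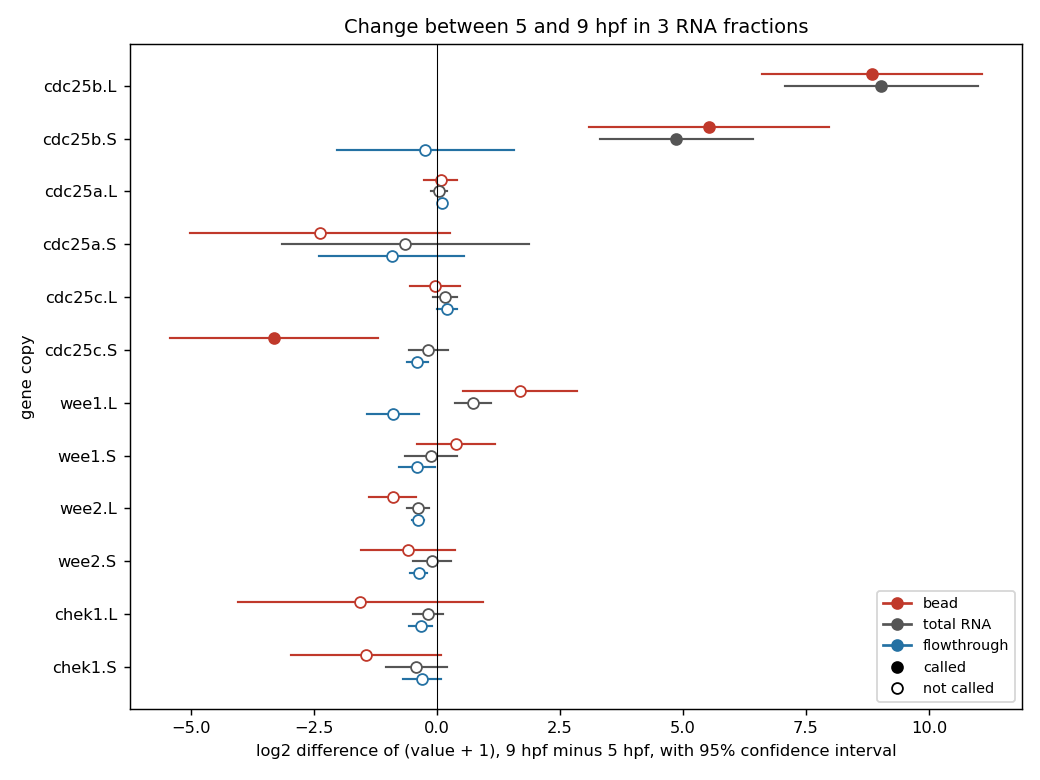
Log2 difference of value plus 1 at 9 minus 5 hpf for each member in bead, total and flowthrough RNA, with 95% confidence intervals from limma. Filled points were called and open points were not. cdc25b.L stands at 8.84 in bead and 9.03 in total RNA and has no flowthrough point because it was under the level set for testing there.

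Bead RNA was then set against flowthrough at each time. No member was called at 5 or 6 hpf by limma in the main fit, where 1.9% and 3.41% of genes were. With an unadjusted p under 0.05, 0 members were higher and 2 lower at 5 hpf, and 1 higher and 2 lower at 6 hpf. Of all 21544 genes 874 were higher and 2084 lower at 5 hpf, and 1016 higher and 2615 lower at 6 hpf, at that level. Among the alternatives at 6 hpf, quantile normalization and array weights called cdc25b.L higher (limma adjusted p = 0.00637 and 0.0331). Leaving out replicate 4 did so too (limma adjusted p = 0.00141). wee2.L was called lower in experiment 2 alone and wee2.S without replicate 3 (limma adjusted p = 0.0259 and 0.0321). The other alternatives at 6 hpf called no member. cdc25b.L passed the level for testing in the fit of both fractions only through its bead libraries, since flowthrough held 0 to 7. The sizes of its differences from flowthrough therefore depend on the pseudocount. It was tested because it is high on the beads, so its p-values against flowthrough add no support beyond the values. cdc25b.L was called higher at 7 hpf (6.44% of genes called) with a log2 difference of 6.13 ± 0.82 (SE, limma adjusted p = 1.79e-06). At 8 hpf (14.9% of genes called) it stood at 7.74 ± 0.82 and cdc25b.S at 4.20 ± 0.97 (SE, limma adjusted p = 7.8e-09 and 0.00215). In experiment 2 alone the 7 hpf call of cdc25b.L and the 8 hpf call of cdc25b.S were lost (limma adjusted p = 0.0883 and 0.114). With the replicate block 2 more members were called at 8 hpf, wee1.L at 1.18 ± 0.42 and cdc25a.S at -2.44 ± 0.86 (SE, limma adjusted p = 0.0414 and 0.04), against limma adjusted p = 0.0579 and 0.0828 without it. A pseudocount of 10 and quantile normalization also called wee1.L (limma adjusted p = 0.035 and 0.0107). So did array weights and leaving out replicate 3 (limma adjusted p = 0.0102 and 0.0092), but not the other alternatives run. wee1.L was at 185, 207, 135 and 316 in bead RNA at 8 hpf, against 98, 77, 88 and 90 in flowthrough, with no overlap. At 9 hpf 3 members were higher and 1 lower, among 28.3% of genes called, 9.35% higher and 18.9% lower. The median log2 difference was -0.66 over the 12 members and -0.70 over all genes. After quantile normalization the median over all genes was -0.28. The tests and the 2-fold rule were set against 0 and did not remove that shift, which lower values have to be read against.

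The members higher on the beads at 9 hpf were both cdc25b copies and wee1.L. cdc25b.L was at 1605, 743, 1526 and 1163 in bead RNA, against 1, 2, 0 and 7 in flowthrough, a log2 difference of 8.84 ± 0.82 (SE, limma adjusted p = 2.75e-10). cdc25b.S was at 547, 274, 245 and 384 in bead RNA, against 7, 7, 2 and 16 in flowthrough, a log2 difference of 5.52 ± 0.97 (SE, limma adjusted p = 5.01e-05). wee1.L was at 281, 409, 594 and 1296 in bead RNA, against 72, 51, 38 and 62 in flowthrough. No library of the 2 fractions overlapped for these copies. The difference of wee1.L was called in each experiment alone, at 2.46 in experiment 1 and 4.15 in experiment 2 (limma adjusted p = 0.000217 and 0.00311).

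cdc25c.S was the member called lower on the beads at 9 hpf, at 211, 153, 0 and 30, against 210, 179, 196 and 213 in flowthrough. The ranges overlap, and both bead libraries of experiment 2 lie far below the rest. The log2 difference was -2.66 ± 0.76 (SE, limma adjusted p = 0.00817), and in experiment 1 alone it was -0.11 (limma adjusted p = 0.877). wee2.L differed by -0.95 ± 0.14 (SE, limma adjusted p = 3.41e-06), under 2-fold, and by -0.26 in experiment 1 alone (limma adjusted p = 0.129). The share of abundant genes listed at 0 was higher in the same experiment 2 libraries, and its part in these results was not tested.

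The change from 5 to 9 hpf differed between bead and flowthrough RNA for 3 of 12 members, all higher on the beads, where 4.77% of genes were called, 4.6% higher. The bead change minus the flowthrough change was 7.84 ± 1.17 for cdc25b.L (SE, limma adjusted p = 1.17e-05), 5.77 ± 1.37 for cdc25b.S (SE, limma adjusted p = 0.00586) and 2.57 ± 0.63 for wee1.L (SE, limma adjusted p = 0.00736). For wee1.S it was 0.79 ± 0.42 (SE, limma adjusted p = 0.335). Flowthrough held cdc25b.L at 0 to 7 in all libraries, so the size of its difference depends on the pseudocount. This copy passed the level for testing only through its bead libraries, so its p-value adds no support beyond the values. In experiment 2 alone none of the 3 was called (limma adjusted p = 0.0763, 0.171 and 0.232), and in experiment 1 alone cdc25b.S was not (limma adjusted p = 0.0726). Without replicate 1 or 2 wee1.L was not called (limma adjusted p = 0.0986 and 0.0831), and without replicate 1 or 4 cdc25b.S was not (limma adjusted p = 0.0723 and 0.08).

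The 2 copies of a gene were compared within each bead library on log2(value + 1). This removes the scaling of the library except where values are near 0. The log2 ratio of L to S for cdc25b was 1.80 ± 0.56 at 9 hpf and -1.51 ± 1.05 at 5 hpf (SD, n = 4 each). The L copy was the higher of the pair in every library at 9 hpf. At 5 hpf L was at 1, 5, 3 and 0 and S at 5, 25, 19 and 0, so both were at 0 in replicate 4. The change of 3.31 for cdc25b and that of 3.27 for cdc25c had exact permutation p = 0.0286, two-sided. That is the smallest that 4 against 4 libraries allow, and it was 0.0858 after adjustment over 6 pairs. For cdc25c the S copy at 9 hpf was at 211 and 153 in experiment 1 and at 0 and 30 in experiment 2. The other pairs, at 2.44 for cdc25a, 1.30 for wee1, -0.31 for wee2 and -0.11 for chek1, had adjusted exact permutation p = 0.1142, 0.2571, 0.8572 and 0.9143. No pair passed. The counting could split reads between near-identical copies, and how far it did so was not examined.

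The genes whose group means were most like those of cdc25b.L over the 16 groups of fraction and time, eggs included, were znf750.L, sfrp2.L, moap1.L, klhdc8a.L and wnt8a.L, with Pearson r of 0.989 to 0.993 across group means of log2(value + 1). Candidates were 12118 genes with a symbol and a highest group mean of at least 100. wnt8a.L, which encodes a Wnt ligand of the early mesoderm, averaged 502 in bead RNA at 9 hpf and was listed at 0 in the bead libraries of 5 hpf. For wee1.L the nearest were egr1.S at 0.940, chmp2b.S, znf653.L, zbtb10.L and c9orf78.L at 0.904, and for wee1.S they were nusap1.L at 0.896, foxh1.S, ptbp1.S, erc1.S and acat2.L at 0.837. These are descriptions over groups that share libraries and depth, without a test.

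Partners of the members were followed in 8 lists. In flowthrough 10 of 98 genes tested fell and 0 rose at 9 against 5 hpf by limma. Of all genes tested 3.94% were called lower and 4.14% either way. At an unadjusted p under 0.05 by limma 16 listed genes were higher and 33 lower, against 2191 higher and 3644 lower of all 19277 genes. Cdk1 and its cyclins had 3 of 12 genes lower, and both cdk1 copies, which encode the kinase that the brake acts on, were among them. cdk1.L averaged 168 ± 53.5 at 9 hpf and 665 ± 27.8 at 5 hpf (SD, n = 4 each), a log2 difference of -2.03 ± 0.18 (SE, limma adjusted p = 2.19e-07). cdk1.S averaged 125 ± 20.1 at 9 hpf and 532 ± 43.1 at 5 hpf (SD, n = 4 each), a log2 difference of -2.09 ± 0.14 (SE, limma adjusted p = 5.93e-09). In total RNA cdk1.L differed by -1.79 ± 0.19 and cdk1.S by -2.26 ± 0.21 (SE, limma adjusted p = 0.000159 and 7.33e-05). The kinase's own message fell in both fractions.

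The list of Atr and Chk1 activators had 2 of 21 genes lower in flowthrough. clspn.S, which encodes Claspin, the adaptor through which Atr activates Chk1, averaged 2060 ± 339 at 9 hpf and 5102 ± 70.8 at 5 hpf (SD, n = 4 each), a log2 difference of -1.32 ± 0.10 (SE, limma adjusted p = 4.74e-08), and in total RNA it differed by -1.47 ± 0.13 (SE, limma adjusted p = 4.04e-05). The other copy, clspn.L, was not among the genes called in flowthrough. topbp1.L, which encodes an activator of Atr, differed by -1.40 ± 0.20 in flowthrough (SE, limma adjusted p = 6.31e-05). Polo, Aurora and Greatwall feedback had 2 of 19 lower, among them aurka.S, the gene of a mitotic kinase, at -1.25 ± 0.09 (SE, limma adjusted p = 1.04e-08). Cdk2 and E cyclins had 1 of 6 lower and replication initiation factors 2 of 6. No gene was called in flowthrough among the 2 copies of pkmyt1, which encodes the membrane-bound kinase Myt1, the 11 of the Atm and Chk2 branch and the 21 tested of destruction and anchoring of Cdc25 and Wee1. At an unadjusted p under 0.05 by limma the last list had 9 higher and 2 lower, the Atm and Chk2 branch 2 higher and 0 lower, and pkmyt1 0 either way. pkmyt1.L differed by -0.01 ± 0.16 and pkmyt1.S by -0.01 ± 0.11 (SE, limma adjusted p = 0.979 and 0.974).

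On the beads 0 of 100 genes tested in the lists rose and 6 fell at 9 against 5 hpf by limma. Of all genes tested 5.83% were called higher and 1.43% lower. At an unadjusted p under 0.05 by limma 3 listed genes were higher and 24 lower, against 2285 higher and 2286 lower of all 20703 genes. The 6 that fell were cdk1.L and ccna1.L of Cdk1 and its cyclins, cdk2.S, topbp1.L, and plk1.S and aurka.S of the feedback list. The other copy of plk1, plk1.L, was not among them. In replicates 1 to 4 cdk2.S was at 138, 170, 0 and 0 at 9 hpf and 273, 300, 123 and 161 at 5 hpf. ccna1.L was at 4818, 3989, 2962 and 1969 at 9 hpf and 7642, 5933, 8310 and 5029 at 5 hpf. Both genes fell less than 2-fold in each replicate of experiment 1, and the values of 0 were from experiment 2. plk1.S, the gene of Polo kinase, which switches Cdc25 on and Wee1 off, averaged 1171 ± 537 at 9 hpf and 2966 ± 428 at 5 hpf (SD, n = 4 each), a log2 change of -1.45 ± 0.20 (SE, limma adjusted p = 2.12e-05), and -0.97, under 2-fold, in experiment 1 alone. The call of cdk1.L at -3.36 ± 1.01 (SE, limma adjusted p = 0.041) was lost with the replicate block (limma adjusted p = 0.0505), while cdk1.S, at -1.50, was called with it (limma adjusted p = 0.0137, against 0.0603 without it). In total RNA 6.25% of all genes tested were called higher and 2% lower. There ccne2.L, the gene of a cyclin E that pairs with Cdk2, was the only gene of the lists that rose, against 9 that fell, and is named after its values were seen. It was at 430 ± 85.6 at 9 hpf (SD, n = 2) and 138 ± 10.9 at 5 hpf (SD, n = 4), and the log2 change was 1.54 ± 0.17 (SE, limma adjusted p = 0.000184).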

How the data were processed

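Messenger RNA was measured in 54 libraries, and per the submitters' processing notes reads were quantified with Salmon 0.12.0 and normalized with DESeq2. The authors deposited 1 table whose values are a score, here normalized reads rounded to whole numbers. The build of the genome was not given in the sources used here, and neither was its annotation. Whole reads could not be recovered, so no counting interval was computed. Tests were run by limma-trend, as planned for values that are not counts (limma 3.58.1, statmod 1.5.0, R 4.3.3) on log2(value + 1), which understates changes of low genes. Each fraction was fitted over all its times and the experiment. Both fractions were compared in a fit of their 40 libraries that added experiment by fraction. Genes of at least 10 in 4 libraries (2 in the fit of total RNA and eggs) were tested, with Benjamini-Hochberg adjustment over all of them. The fit was tested on simulated data with changed genes well above 0 in every library and no clutches. That does not cover values near 0, low detection on the beads or pairing. Members and lists were chosen with earlier results of these data known. All members were named. Listed partners could be named where called with the smallest adjusted p, up to 3 per list, in bead RNA over time and in bead against flowthrough. Both copies of cdk1, clspn, plk1 and pkmyt1 were to be named in any case. In flowthrough, deviations from group means at 9 and 5 hpf correlated at 0.568 to 0.672 within a replicate number, and on the beads at 0.141 to 0.439. The numbers were taken to pair the samples only in the alternative fits with a replicate block, because the design text calls them clutches. The main fits hold no term for the clutch. With the experiment's mean also removed, bead replicates 3 and 4 correlated at 0.062, and bead replicate 3 matched its own number best by neither measure. In flowthrough each number matched itself best before that mean was removed. After it, replicates 1 and 3 matched each other best, and so did 2 and 4. No pair of libraries was identical. Plots used matplotlib 3.10.9 (Python 3.11.15).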

Additional observations from a re-analysis of the deposited data

Results flagged for a closer look

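The change from 5 to 9 hpf differed between bead and flowthrough RNA by limma's test of the difference for cdc25b.L, at 7.84 on the log2 scale (adjusted p = 1.17e-05), for cdc25b.S, at 5.77 (adjusted p = 0.00586), and for wee1.L, at 2.57 (adjusted p = 0.00736). For cdc25b.L flowthrough was at or near 0 throughout, so the size of its difference depends on the pseudocount. That copy was tested only through its bead libraries, so its p-value adds no support beyond the values.

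Among 132 groups of 4 libraries, 5 held a library far from the other three by Dixon's criterion, which chance meets in about 1 of 20 groups. wee1.L stood at 193 in the 6 hpf bead library of replicate 4 and cdc25c.S at 228 in the 5 hpf total RNA library of replicate 1. cdc25b.L stood at 2 in flowthrough at 5 and 6 hpf in replicate 4 and at 7 hpf in replicate 3, where the other libraries were listed at 0.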

How the results depend on the processing

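Over 71 values of members in 6 comparisons, 1429 alternatives left 1368 on the same side of the threshold, took 41 below it and 20 past it, and reversed no called value; 69 values that were not called changed sign. In bead RNA at 9 against 5 hpf the 1 member lower became 0 with no filter, with no experiment term, with array weights and in either experiment alone, 2 after quantile normalization, and 0 to 1 when a library or replicate was left out. The 2 higher became 3 with a pseudocount of 10, and wee1.L also passed with array weights and in experiment 1 alone. They became 1 in experiment 2 alone and 1 to 3 on leaving out libraries. With libraries left out, members lower in flowthrough were 0 to 1, higher in total RNA 0 to 2, and higher at 5 hpf against eggs 0 to 1, the last also 0 in experiment 2 alone. Members lower on beads than in flowthrough at 9 hpf were 0 with array weights, 0 in experiment 1 alone, 2 in experiment 2 alone and 1 to 3 with libraries left out. For the bead change minus the flowthrough change, the 3 higher became 0 in experiment 2 alone and 1 to 3 with libraries left out, and lower ones were 0 to 1. With the replicate block bead RNA had 3 members higher, since wee1.L passed (adjusted p = 0.0329), and in bead against flowthrough at 8 hpf wee1.L and cdc25a.S passed (adjusted p = 0.0414 and 0.04), so members lower there became 1; among members it changed no other call. In bead against flowthrough at 9 hpf, experiment 1 alone reversed cdk2.S (0.65), aurka.S (0.08), ywhae.L (-0.11) and dbf4.L (0.014). The causes were not tested.

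Over all genes, the 1208 higher and 296 lower in bead RNA at 9 hpf ranged from 240 to 1999 and from 63 to 622 over the alternatives, and the 4075 lower on beads than in flowthrough became 65 in experiment 1 alone. Fits of bead against flowthrough at 5 to 8 hpf without single libraries were not run. Low detection on the beads in experiment 2 limits values listed at 0.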
